A study of Salmo salar with 18 samples.

Results

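The oxygen-sensing genes hif1α and egln2 were followed in the liver of Atlantic salmon, each by the array probe that the study's primer table ties to it, C120R146 for hif1α and C079R030 for egln2. The rule named probe identifiers, and it gave 2 probes of the 43689 on the array, both among the 23846 bright enough to be tested. However, the paper chose its qPCR genes among those it had found changed on these same arrays. Differences of both probes from CT fish are thus not independent of that choice. No other named probe carried either gene's symbol, but only 1453 probes had a symbol, so further probes of either gene may be unnamed. RNA from 18 post-smolts was hybridized to 18 two-colour arrays, with 1 fish per array labelled with Cy5 and a pool of all 18 fish, the common reference, labelled with Cy3. WH (Warm & Hypoxic) fish were brought to 70% air saturation at 12 °C and then warmed by 1 °C per week to 20 °C, WN (Warm & Normoxic) fish were warmed in the same way at 100% air saturation, and CT (Control) fish stayed at 12 °C and 100% air saturation. Fish were sampled after a day of fasting, 3 days after the warmed tanks had reached 20 °C. Each treatment had 6 fish, 3 from each of 2 tanks.

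The α subunits of the hypoxia-inducible factors (HIFs) are transcription factors whose protein is made and destroyed continuously in well-oxygenated cells. Prolyl hydroxylases of the EGLN (PHD) family use molecular oxygen to hydroxylate the α subunit, which the von Hippel-Lindau protein then marks for the proteasome. When oxygen is short, hydroxylation slows, the α subunit pairs with ARNT in the nucleus and binds hypoxia response elements near genes for glycolysis, oxygen delivery and growth. Much of this control in mammals acts on HIF-1α protein, which these arrays did not measure. hif1α encodes the α subunit, and egln2 (phd1) encodes one of the hydroxylases. Salmonids carry duplicated genomes, so a gene may have several paralogues. The primer table gives its hif1α transcript as paralogue c.

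The primers of both genes are shown because they define the transcript that the study's qPCR measured under each name. They were matched through their accessions to the RefSeq genes hif1a (gene 100194993) and egln2 (gene 100306807). The qPCR values themselves were not analysed here. Primers do not show what an array probe binds, and the probe sequences were not analysed. Whether each probe reports only that paralogue is therefore not known, and the paper names cross-hybridization of paralogues on the array as a possibility.
hif1α forward: cccatgttcacaacaacagc
hif1α reverse: aatgagaaggggctgaacct
egln2 forward: tagttaaatgtgtgtgtgcgca
egln2 reverse: tcttacccagtctatctcacacac

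Both probes gave usable spots, although neither was bright. The median Cy5 signal of hif1α over the 18 arrays was 356.5 intensity units, above that of 30.5% of probes, and it was 891.5 units for egln2, above that of 54.8%. These brightness values were not compared between the genes, since each probe has its own efficiency. The hif1α spot exceeded the background by 2 background SDs on 17 of 18 arrays in the Cy5 channel and on 18 in the Cy3 channel, and no hif1α spot carried a quality flag. The authors' processed values lacked hif1α on CT-5, WN-1 and WH-4, which were kept here. These arrays had the dimmest hif1α reference spots, at 119, 113 and 114 Cy3 units. The egln2 spot exceeded it on 15 arrays in Cy5 and 16 in Cy3, and it was flagged on 2 arrays, both of WN fish. On array WN-3 the image software had marked it as empty, and on WN-5 it had failed on the share of ignored pixels. Both egln2 spots were left out, so egln2 had 4 WN fish, 6 WH fish and 6 CT fish.

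Across the whole array, 8.93% to 17.3% of probes were flagged per array, and limma (Benjamini-Hochberg adjustment over the 23846 probes tested) called 1226 probes for WH against CT fish, 1179 for WN against CT fish and 0 for WH against WN fish at an adjusted p under 0.05. SAM, written anew from its description, called 1475, 1144 and 0 probes in the same order. The liver label could be checked only in part, because names were at hand for few marker genes. Of 16 hepatocyte markers, only C3 had named probes, and both were bright on all 18 arrays (Cy5 signal of 3541 to 48376 units). Of the 8 erythrocyte markers 2 had named probes, of the 8 leukocyte markers 2, of the 6 endothelial and stromal markers 1, and of the exocrine pancreas and adipocyte markers 0. The p-values treat the 6 fish of a treatment as independent, although water was controlled per tank.

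By group mean, the level of hif1α mRNA was lowest in WH fish, intermediate in WN fish and highest in CT fish, and of the steps between neighbours neither passed the test. Its log2 ratios to the common reference were -0.55, -0.42, -1.001, -0.29, -0.58 and -0.73 in WH fish 1 to 6. In WN fish 1 to 6 they were -0.15, -0.01, -0.74, -0.27, -0.53 and 0.10. In CT fish 1 to 6 they were 0.12, 0.50, 0.88, 0.09, 0.45 and 0.06. Every WH fish thus lay below every CT fish, and every CT fish was above the pool. In WN fish, 5 of 6 lay below the lowest CT fish and the other, WN-6, overlapped with the lower CT fish. The share of all probes with 5 of 6 WN fish below every CT fish was not counted.

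**Figure D1:**
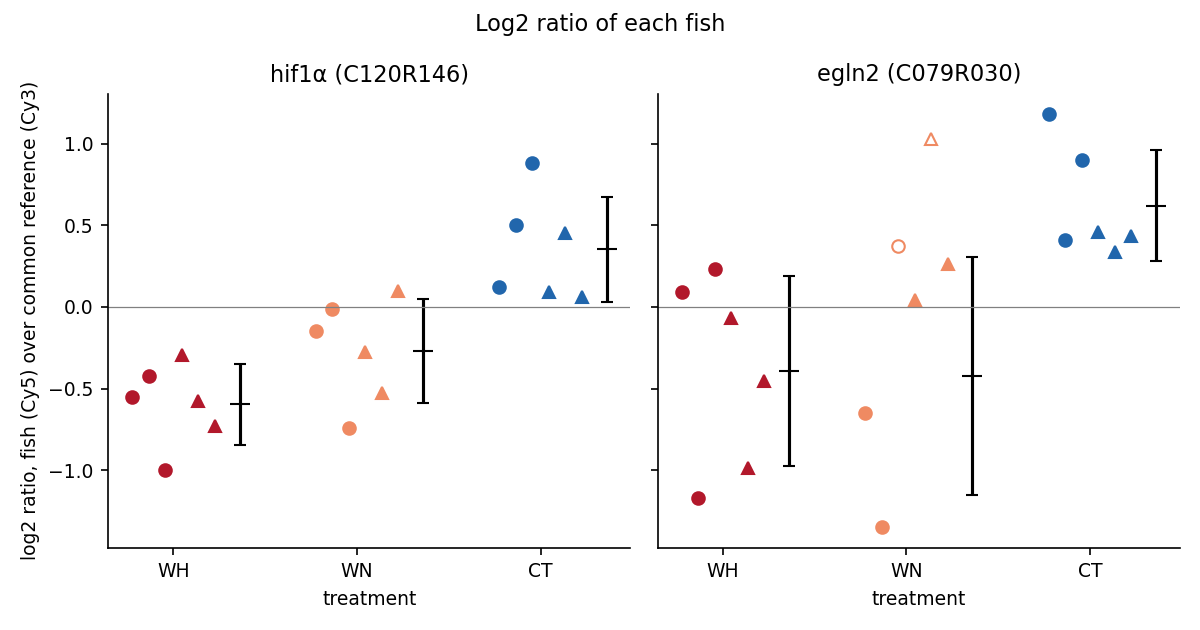
Log2 ratio of each fish to the common reference for hif1α (left) and egln2 (right) in WH, WN and CT fish. Circles and triangles are the 2 tanks of each treatment, bars are means with SD, and open symbols are the 2 flagged egln2 spots of WN fish, left out of the means. The 6 WH fish lie below all 6 CT fish for both genes, and 1 WN fish overlaps with CT fish for hif1α.

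The group means of hif1α were -0.59 ± 0.25 in WH fish, -0.27 ± 0.32 in WN fish and 0.35 ± 0.32 in CT fish (SD, n = 6 each). hif1α was called in WH against CT fish, with a log2 fold change of -0.95 (SE 0.20, 95% confidence interval -1.36 to -0.53, limma adjusted p = 0.00536). On a linear scale this was 0.519 times the CT level (0.390 to 0.690). Of all probes tested in this comparison, 5.14% were called and 2.72% were called lower, and 2.09% of the probes with a value on all 12 arrays lay entirely below the CT fish. The exact permutation test over all splits of 6 against 6 fish gave p = 0.00216 (two-sided), the smallest p it allows. The call was lost when spot means replaced spot medians, with a log2 fold change of -0.54 (limma adjusted p = 0.228), and narrowly with median centring instead of loess, at -0.99 (limma adjusted p = 0.0503).

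In WN against CT fish the log2 fold change of hif1α was -0.62 (SE 0.20, 95% confidence interval -1.03 to -0.21, limma adjusted p = 0.0748), which missed the threshold. On a linear scale it was 0.651 times the CT level (0.490 to 0.866). In this comparison 4.94% of all probes were called, 3.08% of all were called lower, and 18.9% had an unadjusted p under 0.05. The unadjusted limma p of hif1α was 0.00492, a value that 6.57% of all probes tested went below. The exact permutation test over fish gave p = 0.00649 (two-sided). All 6 WN fish were below the CT mean. Loess followed by quantile normalization, or tank as a random block, moved the adjusted p to 0.0465 and 0.0463.

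Between WH and WN fish, which differed in oxygen and shared the warming, the log2 fold change of hif1α was -0.33 (SE 0.20, 95% confidence interval -0.74 to 0.08, limma adjusted p = 0.862). The interval therefore includes no difference and a WH level of 0.5997 times that of WN fish. Neither limma nor SAM called any probe in this comparison (0% of those tested), where 5.77% of probes had an unadjusted limma p under 0.05. All 6 WH fish were below the WN mean, but only 1 was below the lowest WN fish (two-sided exact permutation test, p = 0.0714).

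The mean egln2 mRNA level was 0.496 times that of CT fish in WH fish, which passed the test, and 0.485 times in WN fish, which did not. Its log2 ratios were 0.09, -1.17, 0.23, -0.07, -0.99 and -0.45 in WH fish 1 to 6. In the 4 WN fish with an unflagged spot they were -0.65, -1.35, 0.04 and 0.26 (WN-1, WN-2, WN-4 and WN-6). In CT fish 1 to 6 they were 1.18, 0.41, 0.90, 0.46, 0.34 and 0.43. All 10 warmed fish with a value lay below all 6 CT fish, as was so for 1.15% of the probes with a value on each of these arrays. The warmed fish ranged widely, with WN-2 and WH-2 lowest and WN-6 and WH-3 just under the CT range, whereas 4 CT fish lay within 0.34 to 0.46. The lowest warmed values were those of WN-2, WH-2 and WH-5. The spots of WN-2 and WH-5 did not exceed the background by 2 background SDs in Cy5, nor that of WH-2 in Cy3. Their Cy5 signals were 546 units in WN-2, 532 in WH-2 and 548 in WH-5, against local backgrounds of 101.5, 77 and 137.5 units. The log2 fold change against CT fish was -0.74 in WN fish without WN-2. In WH fish it was -0.86 without WH-2 and -0.89 without WH-5. Leaving out these spots together was not tested.

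The Cy5 signals of egln2 before normalization, which enter the same log2 ratios, also separated WH from CT fish. How many of all probes did so was not counted. The paper adjusted the scanner gain by hand, so raw signals also depend on the array. In WH fish the egln2 spot read 532 to 890 units with a median of 695, against 1667 to 1924 units with a median of 1757 in CT fish. In the unflagged WN spots it read 386, 546, 794 and 893 units. The flagged spots read 895 units in WN-3 and 2259.5 in WN-5, the latter above every CT fish. The Cy3 signal of the common reference overlapped between treatments, at 510 to 1276 units in WH fish, 591 to 1385 in WN fish and up to 1420 in CT fish (medians of 994, 1118 and 869 units in that order). For hif1α the Cy5 signals did overlap, at 204 to 489 units in WH fish, 127 to 580 in WN fish and 354 to 687 in CT fish. Their medians were 305.25 units in WH fish, 307.5 in WN fish and 547.25 in CT fish. These raw medians were not adjusted for the brightness of each array. The reference spot of hif1α ran from 114 to 942 units in WH fish, from 113 to 716 in WN fish and from 119 to 475 in CT fish. Its medians were 556, 366.5 and 289 units in that order, although the pool was the same on every array. The share of the reference channel in the order of the hif1α ratios was not tested.

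The group means of egln2 were -0.39 ± 0.58 in WH fish (SD, n = 6), -0.42 ± 0.73 in WN fish (SD, n = 4) and 0.62 ± 0.34 in CT fish (SD, n = 6). egln2 was called in WH against CT fish, with a log2 fold change of -1.01 (SE 0.29, 95% confidence interval -1.62 to -0.41, limma adjusted p = 0.0474), or 0.496 times the CT level (0.325 to 0.755). Of all probes tested in this comparison, 5.14% were called and 2.72% were called lower. Of the probes with a value on all of its arrays, 2.09% lay entirely below the CT fish, as egln2 did. The exact permutation test over fish gave p = 0.00216 (two-sided), again the smallest possible. The adjusted p lay close to the threshold, and the call was lost in 12 of the 18 fits that left out 1 array (each CT array, WN-1, WN-4, WH-2, WH-4, WH-5 and WH-6), while the log2 fold change stayed between -1.14 and -0.86. Of 13 other settings, 6 lost it, among them slide as a block, at -0.87 (limma adjusted p = 0.278).

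In WN against CT fish the log2 fold change of egln2 was -1.04 (SE 0.33, 95% confidence interval -1.72 to -0.36, limma adjusted p = 0.0700, 4 WN fish), or 0.485 times the CT level (0.303 to 0.777), which missed the threshold. All 4 WN fish lay below all CT fish, and the exact permutation test gave p = 0.00952 (two-sided), the smallest that 4 against 6 fish allow. Over the same 10 arrays, 2.96% of the probes with a value on each were lower without overlap, and over all 12 arrays, a separation harder to reach, 2.02% were. Of the 18 fits that left out 1 array, 1 called egln2, the one without WN-6, at -1.27 (limma adjusted p = 0.0383). Without WN-1 the log2 fold change was -0.97 (limma adjusted p = 0.152), and without WN-2 it was -0.74 (limma adjusted p = 0.229). The 2 flagged WN spots also bear on the log2 fold change of egln2 in WN fish. Had they been kept, the log2 ratios would have been 0.37 in WN-3 and 1.03 in WN-5, both inside the CT range, and the log2 fold change would have been -0.67 (limma adjusted p = 0.272).

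Between WH and WN fish the log2 fold change of egln2 was 0.03 (SE 0.33, 95% confidence interval -0.65 to 0.71, limma adjusted p = 0.992), an interval from 0.638 to 1.64 times the WN level. The groups overlapped, with 3 of 6 WH fish below the WN mean (two-sided exact permutation test, p = 0.905). With the flagged spots kept, the sign turned, to -0.34. This comparison thus leaves room for a difference in either direction.

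**Figure D2:**
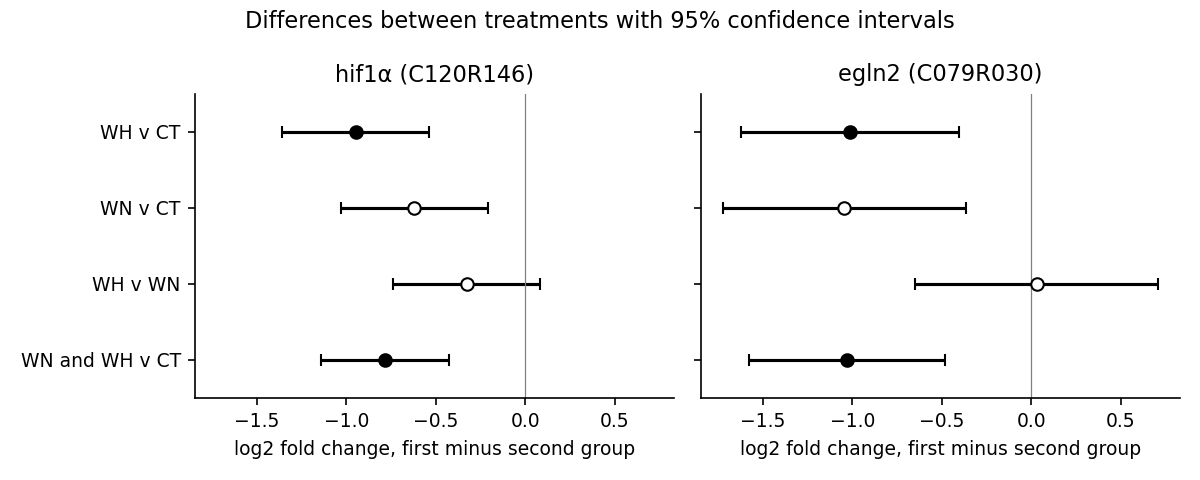
Log2 fold change of hif1α (left) and egln2 (right) in each comparison, the first named group minus the second, with 95% confidence intervals from limma. Filled circles were called at an adjusted p under 0.05 and open circles were not. Intervals for both warmed groups against CT lie below 0, and those for WH against WN include 0.

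When the 10 to 12 warmed fish were set against the CT fish together, a comparison added after the values had been seen, both genes were called. hif1α had a log2 fold change of -0.78 (SE 0.17, 95% confidence interval -1.14 to -0.43, limma adjusted p = 0.00550), and 11 of 12 warmed fish lay below every CT fish. egln2 had -1.03 (SE 0.26, 95% confidence interval -1.58 to -0.48, limma adjusted p = 0.0185), with 10 of 10 warmed fish below every CT fish. In this comparison 7.57% of all probes were called and 4.16% of all were called lower. Of the probes with a value on all 18 arrays, 1.04% were lower without overlap (1.15% over the 16 arrays with an egln2 value). The share with 11 of 12 warmed fish below every CT fish, as for hif1α, was not counted. The exact permutation tests gave p = 3.23e-04 for hif1α and p = 2.50e-04 for egln2 (two-sided). Spot means removed the hif1α call (log2 fold change -0.47, limma adjusted p = 0.181). The egln2 call was lost without CT-1 (-0.92, limma adjusted p = 0.0541), with slide as a block (-0.96, limma adjusted p = 0.0975), with each array centred on its median (-0.92, limma adjusted p = 0.0781) and with flagged spots kept (-0.84, limma adjusted p = 0.0731).

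The treatments were applied to tanks, so the tank means were also set side by side. For hif1α they were -0.66 and -0.53 in the WH tanks, -0.30 and -0.23 in the WN tanks, and 0.50 and 0.20 in the CT tanks. The hif1α tank means of the 3 treatments did not overlap. How many of all probes showed such a separation of tank means was not counted. Within a tank the SD over 3 fish was 0.22 to 0.39. For egln2 they were -0.28 and -0.50 in the WH tanks and 0.83 and 0.41 in the CT tanks. The WN tanks differed most, at -0.998 in tank 2 and 0.15 in tank 5, with 2 usable spots each. With 2 tanks against 2, an exact test over tanks cannot go below p = 0.333.

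The arrays lay on 5 slides with 3 or 4 arrays each, and each slide held at least 2 treatments. hif1α was lower in WH than in CT fish on each of the 3 slides that held both, by a log2 difference of -1.20 to -0.81. It was lower in WN than in CT fish on each of 3 slides, by -0.65 to -0.25, and lower in WH than in WN fish on each of 3, by -0.83 to -0.15. egln2 was lower in WH than in CT fish on each of 3 slides, by -1.12 to -0.32. It was lower in WN than in CT fish on each of 3, by -1.47 to -0.41. These egln2 signs, and those of hif1α in WH against CT fish, were fixed in advance. In each case all warmed values lay below all CT values, so slides could not differ in sign. Between WH and WN fish egln2 was -0.72 on one slide and 0.75 on the other that held both. Slide X547 held no CT fish, and on it lay the lowest hif1α values of each warmed group (-1.001 in WH-3 and -0.74 in WN-3) and both flagged egln2 spots. With slide as a block the hif1α log2 fold change was -0.89 in WH fish (limma adjusted p = 0.0277) and -0.49 in WN fish (limma adjusted p = 0.209), both against CT fish. That of egln2 was -0.87 in WH fish (limma adjusted p = 0.278) and -1.06 in WN fish (limma adjusted p = 0.115).

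**Figure D3:**
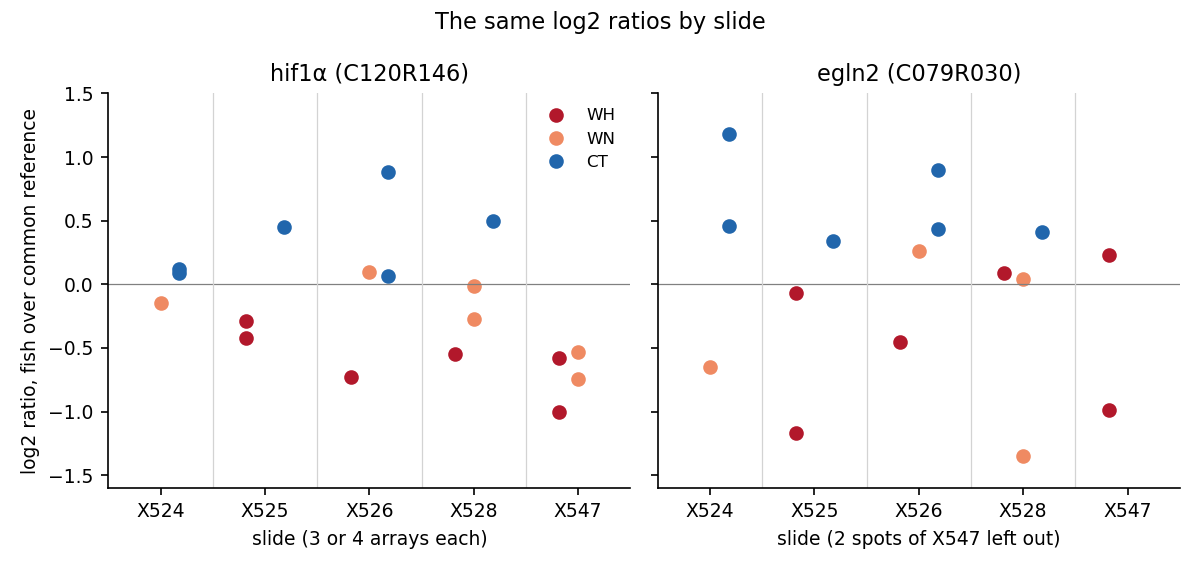
The same log2 ratios arranged by slide, with WH, WN and CT fish left to right within a slide. On every slide that held CT fish, the warmed fish had a lower mean than the CT fish for both genes. For egln2, and for hif1α in WH fish, this follows from the lack of overlap of unflagged spots with CT fish. Slide X547 held only warmed fish.

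The genes were compared within fish through the log2 ratio of hif1α minus that of egln2, a measure added after the values had been seen. It averaged -0.20 ± 0.71 in WH fish (SD, n = 6), 0.34 ± 0.75 in WN fish (SD, n = 4) and -0.27 ± 0.44 in CT fish (SD, n = 6). None of 3 comparisons passed an exact permutation test over fish. The difference was 0.07 for WH against CT (two-sided exact permutation test, p = 0.848, adjusted p = 0.848), 0.61 for WN against CT (exact permutation test, p = 0.171, adjusted p = 0.414) and -0.54 for WH against WN (exact permutation test, p = 0.276, adjusted p = 0.414).

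Within a treatment, no relation between the levels of the genes passed a test. Over the 6 WH fish Pearson's r was -0.38 (exact permutation test, p = 0.478, adjusted p = 0.803) and Spearman's rho -0.37 (p = 0.497, adjusted p = 0.994). Over the 6 CT fish r was 0.11 (exact permutation test, p = 0.803, adjusted p = 0.803) and rho -0.03 (p = 1, adjusted p = 1). Without the 2 fish farthest from the median of hif1α, r was -0.42 in WH and -0.59 in CT fish. These were the 2 relations computed. WN fish had only 4 pairs of values, so no correlation was given for them.

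**Figure D4:**
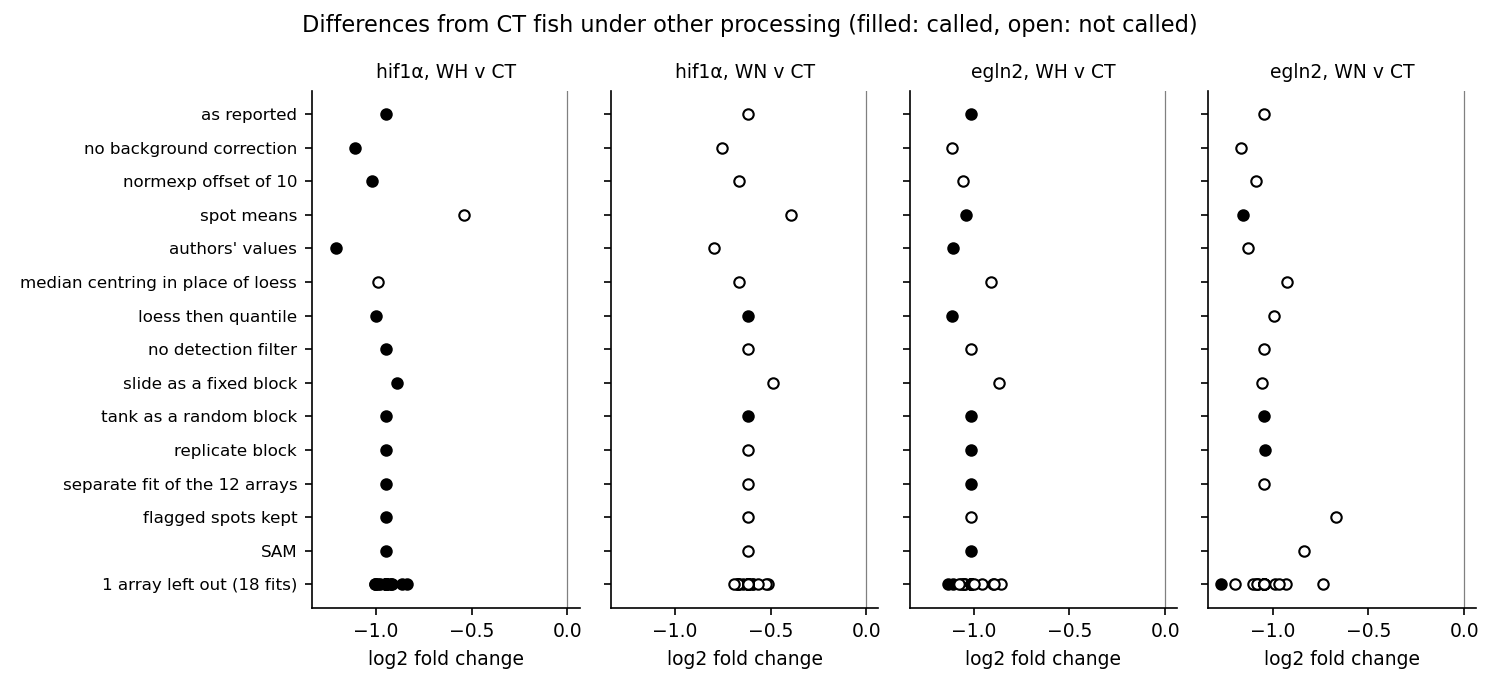
Log2 fold change of hif1α and egln2 in WH and WN fish, each against CT fish, as reported and under 13 other settings, with the 18 fits that each left out 1 array in the last row. Filled circles were called, open circles were not. Every value lies below 0, with spot means giving the smallest hif1α changes and flagged spots kept the smallest egln2 change in WN fish.

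The remaining genes of the pathway could be followed only where a name was at hand. Names came from the study's list of probes that its authors had called in WN fish on these same arrays, and from its primer table, so the counts and directions below are not independent evidence and genes without a change in WN fish are mostly missing. Of 7 symbols of HIF subunits only HIF1A had a named probe, of 19 symbols of HIF hydroxylation and degradation 3 had one, and of 12 symbols of HIF cofactors 0. Among the glycolysis and energy targets, 6 of 24 symbols had 9 named probes. Among the targets in oxygen delivery, growth and survival, 2 of 27 symbols had 3.

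In the hydroxylation and degradation list, 1 probe was called higher and 1 lower in WH against CT fish, and 0 of 3 were called in WN against CT fish. Over all probes, 2.42% were called higher and 2.72% lower in WH against CT fish, and 4.94% were called in WN against CT fish. The called lower one was egln2. The called higher one was OS9 (C184R096), a lectin of the endoplasmic reticulum that in human cells also binds HIF-1α and prolyl hydroxylases. Its log2 ratios were -1.17 to 0.70 in WH fish (median 0.24), -0.59 to 0.24 in WN fish (median 0.14) and -1.48 to -0.16 in CT fish (median -0.91), with overlap between the groups. Its log2 fold change was 0.98 in WH fish (SE 0.28, limma adjusted p = 0.0417) and 0.85 in WN fish (SE 0.28, limma adjusted p = 0.0816), both against CT fish.

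A second prolyl hydroxylase probe, C212R089, is named EGLN1 in the annotation, but its closest transcript belongs to a locus described as EGLN3-like (LOC106611226), so which paralogue it reports is not settled. EGLN1 (PHD2) is the main regulator of HIF-1α in mammals under normal oxygen, and EGLN3 (PHD3) is itself a HIF target there. The log2 ratios of C212R089 were 0.08, 0.46, -0.44, -0.12, 0.18 and 1.12 in WH fish 1 to 6. In WN fish 1 to 6 they were 0.24, -0.15, 0.40, 0.56, 0.41 and 0.26. In CT fish 1 to 6 they were -0.58, -0.99, -0.06, -0.45, -0.89 and -0.06. Most warmed fish were above the CT fish, while WH-3, WH-4 and WN-2 lay within the CT range. Its log2 fold change was 0.72 in WH fish (SE 0.24, limma adjusted p = 0.0894) and 0.79 in WN fish (SE 0.24, limma adjusted p = 0.0575), both against CT fish and neither called, which was opposite in sign to egln2.

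Among the glycolysis and energy targets, every probe called was higher in warmed fish. Of 9 probes, 5 were called higher and 0 lower in WH against CT fish, with a median log2 fold change of 1.05 against 0.04 over all probes tested, where 2.42% of all probes were called higher. In WN against CT fish 6 were called higher and 0 lower, with a median of 1.08 against 0.01 over all probes, where 1.86% were called higher. Between WH and WN fish 0 of 9 were called, and their median was -0.02 against 0.03. The highest were 3 probes of PPP1R3C, which targets protein phosphatase 1 to glycogen, and GAPDH, which carries the oxidation step of glycolysis. The counts are of probes, so PPP1R3C enters them 3 times. Names came mostly from probes that the authors had called in WN fish against these same CT fish. An excess of the 9 probes over all probes was thus largely fixed in advance and is not evidence about the list.

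PPP1R3C probe C150R031 had log2 ratios of -0.03 to 0.94 in WH fish (median 0.61) and -0.46 to 0.65 in WN fish (median 0.11), against -2.42 to -1.04 in CT fish (median -1.77), with no overlap of either warmed group with CT. Its log2 fold change was 2.32 in WH fish (SE 0.25, limma adjusted p = 8.52e-06) and 1.87 in WN fish (SE 0.25, limma adjusted p = 1.12e-04). The other 2 PPP1R3C probes, which share 1 annotated transcript, rose by 1.52 and 1.91 in WH fish and by 1.59 and 2.00 in WN fish. GAPDH (C146R081) rose by 1.70 in WH fish (SE 0.31, limma adjusted p = 0.00157) and by 1.87 in WN fish (SE 0.31, limma adjusted p = 7.93e-04). Its lowest warmed fish (-0.64) lay above its highest CT fish (-1.08). The share of all probes that were higher without overlap was not counted, so the separations of GAPDH and C150R031 have no such share beside them.

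PDK3, a kinase that holds back pyruvate dehydrogenase and so the entry of pyruvate into mitochondria, rose by 1.05 in WH fish (SE 0.27, limma adjusted p = 0.0214) and by 1.08 in WN fish (SE 0.27, limma adjusted p = 0.0204). Triosephosphate isomerase 1, which interconverts the triose phosphates, had probes of opposite sign. C266R142 had a log2 fold change of 0.77 in WH fish (limma adjusted p = 0.0544) and rose by 1.01 in WN fish (limma adjusted p = 0.0112), while C226R011 had -0.17 (limma adjusted p = 0.863) and -0.85 (limma adjusted p = 0.155). ALDOA, an aldolase, had log2 fold changes of -0.06 in WH and -0.58 in WN fish, and PKM2, a pyruvate kinase, had -0.39 and -0.66. Neither of these was called in any comparison.

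In the list of oxygen delivery, growth and survival targets, 1 of 3 probes was called lower in WH against CT fish, where 2.72% of all probes were, and 0 in WN against CT fish, where 3.08% were. It was PLIN2 (C049R002), which coats lipid droplets. PLIN2 had log2 ratios of -1.22 to 0.34 in WH fish (median -0.73) and -0.76 to 0.30 in WN fish (median -0.41), against 0.42 to 1.23 in 4 CT fish with a usable spot (median 0.62). Its log2 fold change was -1.34 in WH fish (SE 0.29, limma adjusted p = 0.00820) and -1.0003 in WN fish (SE 0.29, limma adjusted p = 0.0522). Both probes of NDRG1, a stress-responsive gene, had negative log2 fold changes, of -0.60 and -0.56 in WH fish and -0.61 and -0.94 in WN fish, and none was called.

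**Figure D5:**
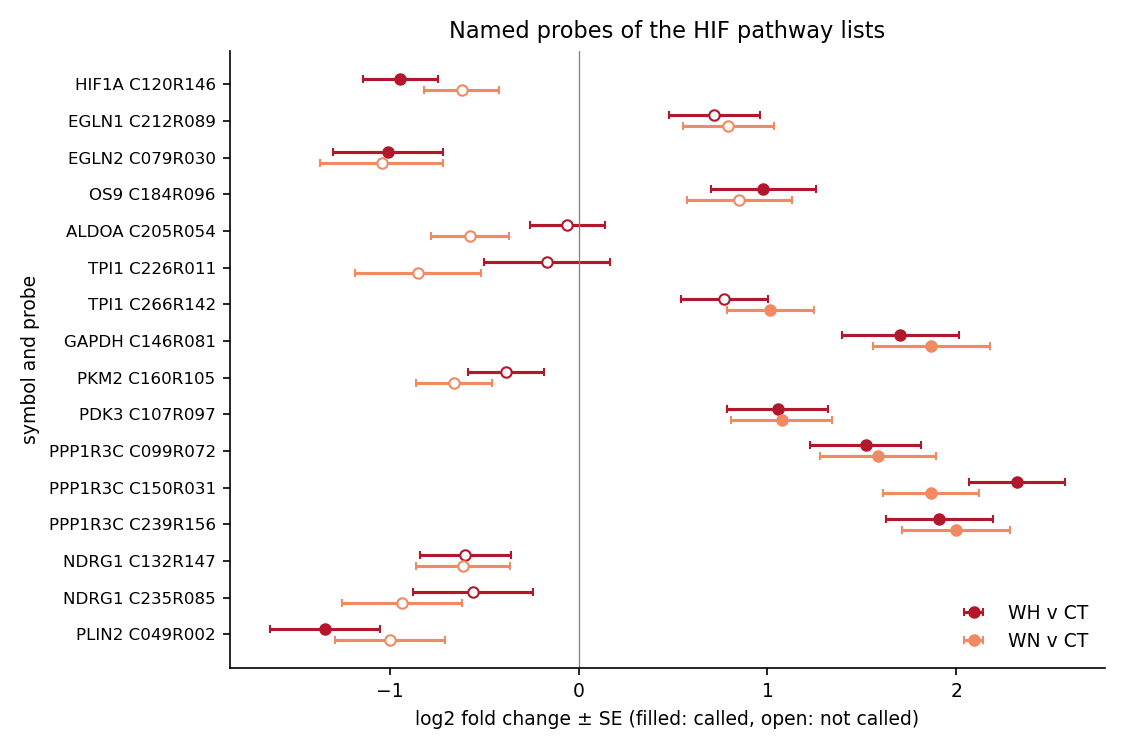
Log2 fold change with SE of the 16 named probes of the HIF pathway lists, in WH and in WN fish, each against the same CT fish. Filled circles were called and open circles were not. HIF1A, EGLN2, NDRG1, PLIN2, ALDOA and PKM2 lie below 0, PPP1R3C, GAPDH, PDK3, OS9 and EGLN1 above 0, and the TPI1 probes on either side.

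Markers of other cell types are given beside these changes, and their part in them was not tested. The 1 probe annotated as MPO, a leukocyte peroxidase, is tied by the primer table to epx, an eosinophil peroxidase-like gene, so which of them it reports is not settled. It was higher in WH (log2 fold change 1.39, limma adjusted p = 0.0262) and WN fish (1.41, limma adjusted p = 0.0267) than in CT fish. The 3 IGHM probes had log2 fold changes of -0.83 to -0.51 in WH and -0.86 to -0.74 in WN fish and were not called. Of the erythrocyte markers, HBA4 was lower in WH fish (-1.12, limma adjusted p = 0.0278), and the 2 ALAS2 probes, with -0.50 and -0.66, were not called. In WN fish HBA4 had -0.90 (limma adjusted p = 0.0838) and the ALAS2 probes -0.71 and -0.57, none of them called. HBA4 was faint, at 65 to 711 Cy5 units and above background on 15 of 18 arrays. Both ALAS2 probes were bright on all 18, at 3795.5 to 20319.5 units. The stromal marker COL1A1 was lower in WH fish (-0.92, limma adjusted p = 0.0266) and had -0.68 in WN fish, not called (limma adjusted p = 0.110). The 2 probes of the hepatocyte marker C3 had -0.30 and -0.54 in WH and -0.82 and -0.79 in WN fish, and were not called. In liver pieces, fewer cells of a type and less RNA per cell cannot be told apart.

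The probes most like hif1α across the 18 arrays, among the 18650 others with a value on each, had Pearson's r of 0.82 to 0.86. One of the 5, C087R066, was named (FAM241A, r = 0.856), and its log2 fold change was -0.73 in WH and -0.71 in WN fish, not called in either. The others, C022R142, C265R098, C263R062 and C129R101, had no name in the tables used, and each was called lower in both warmed groups, with log2 fold changes of -2.18 to -1.14 in WH fish. For egln2, over its 16 arrays and 18983 probes, the 5 most like had r of 0.83 to 0.88. Of these, EWSR1 (C194R029, r = 0.856), an RNA-binding protein, TUBB2B (C068R025, r = 0.855), a tubulin, and PSMD11 (C219R027, r = 0.853), a proteasome subunit, were named, and C140R030 and C194R004 were not. These r values share the treatments and arrays and carry no test. After the group means were taken away, the 3 most like were all unnamed for both genes, C097R075, C240R168 and C062R044 for hif1α (r of 0.81 to 0.84) and C154R009, C201R016 and C188R060 for egln2 (r of 0.82 to 0.86). None of these 6 was called in any comparison.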

How the data were processed

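Liver RNA of 18 fish was measured on 18 two-colour arrays. The authors scanned the arrays and quantified them in ImaGene, and the deposited intensities hold, per the file headers, each spot's signal, local background and quality flag without normalization. In the authors' processed table, used as an alternative, the log2 ratios of Cy5 to Cy3 had been background-corrected, loess-normalized and stripped of flagged spots. It lacked hif1α on 3 arrays and egln2 on 2.

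Here, spot medians were corrected by normexp (offset 50) in limma (version 3.58.1, under R version 4.3.3) and turned into log2 ratios, which were loess-normalized array by array on unflagged probe spots alone. Flagged spots were set to missing and not imputed. A probe was tested if, on 75% of arrays, its spot was unflagged and brighter than background plus 2 background SDs in Cy5 or Cy3 (23846 of 43689 probes). One limma fit of the 3 treatments was used, with Benjamini-Hochberg adjustment over all probes tested and a threshold of 0.05. Single values were compared by two-sided exact permutation over fish. SAM used 100 splits and the authors' false discovery rate of 5%, and filled gaps with the mean of the probe. The fits were tested on simulated data. Precision was limited by the number of arrays.

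Both genes and all gene lists were chosen with earlier results of these data known. The text names both probes, other probes of HIF1A and EGLN genes, called probes of the subunit and hydroxylation lists, up to 4 called probes per other list, and the 5 and 3 probes most like each gene. TPI1, ALDOA, PKM2, PDK3 and NDRG1 fall outside this rule and were named after their values were seen. Of 1506 probes in the naming tables, 1453 had a symbol and 1085 matched RefSeq (assembly Ssal_v3.1, names only). Columns of the authors' own comparisons were not used. The arrays' probe sequences, promoters, proteins and response element motifs were not analysed here. Alternatives were other background corrections, spot means, other normalizations and filters, the authors' values, SAM, blocks for slide, tank or replicate number, fits of 12 arrays alone, and each array left out.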

Additional observations from a re-analysis of the deposited data

Results flagged for a closer look

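Neither hif1α nor egln2 had a fish far from the rest of its group. Among the 16 named pathway probes, 4 of the 48 groups tested held a fish set apart from the others, by a gap that chance gives in about 1 in 20 groups. OS9 (C184R096) was at -1.17 in WH-5, where the next WH fish was at 0.11. GAPDH (C146R081) was at 1.64 in WH-1, where the next was at 0.35, and PKM2 (C160R105) was at -0.94 in the same fish, where the next was at -0.23. PPP1R3C (C099R072) was at 1.36 in WN-2, where the next of 5 WN fish was at 0.59. All values are log2 ratios to the common reference.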

How the results depend on the processing

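The log2 fold changes of both genes in WH and WN fish against CT fish stayed negative under every alternative run. In WH against CT fish, hif1α lost its call with spot means (-0.54) and median centring (-0.99), and it was called in all 18 fits that left out 1 array. The egln2 call was lost without background correction (-1.12), with an offset of 10 (-1.05), median centring (-0.91) or slide as a block (-0.87), and, at an unchanged -1.01, without the detection filter and with flagged spots kept. In fits without 1 array egln2 ranged from -1.14 to -0.86 in WH, from -1.27 to -0.74 in WN and from -1.14 to -0.87 in all warmed fish against CT fish, and from -0.28 to 0.26 between WH and WN fish. The last reversed with quantile normalization (-0.12) and with flagged spots kept (-0.34). In WN against CT fish, hif1α gained a call with quantile normalization (-0.62) and tank as a random block (-0.62), and egln2 with spot means (-1.15), tank as a random block (-1.04) and the replicate block (-1.04). In all warmed against CT fish, hif1α lost its call with spot means (-0.47) and egln2 with median centring (-0.92), slide as a block (-0.96) and flagged spots kept (-0.84). The tank block had a consensus correlation of -0.05, and a negative one narrows the errors between treatments.

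Replicate numbers did not pair the fish (correlations of -0.11 to 0.12), and the replicate block changed no other call of either gene. In the pathway lists, the 6 probes called in WN fish became 10 in the authors' values and 11 with tank as a random block. The 9 called in WH fish became 5 with median centring and 5 where both channels had to be above background on every array, a filter that both genes failed. After the group means were taken away, 1 of the 5 probes most like hif1α remained among its 50 most similar. In the authors' values each correlation between the genes had fewer than 6 fish and was not computed. The causes were not tested. The hif1α spot was above background on 17 of 18 arrays in Cy5, and 2 egln2 spots of WN fish were lost to flags.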
